A study of Mus musculus with 13 samples.

Results

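The protocadherin genes are the 67 genes, of 20689 with a gene body row in the deposited table, whose symbol starts with Pcdh. They were found by matching the table's gene identifiers to RefSeq symbols. The 67 hold 11 genes of the alpha cluster (Pcdha), 22 of the beta cluster (Pcdhb), 22 of the gamma cluster (Pcdhg) and 12 non-clustered genes. To them were added the 59 CpG island rows, of 16009, that overlap their bodies: 19 in Pcdha, 9 in Pcdhb, 16 in Pcdhg and 15 in non-clustered bodies. RefSeq lists 70 genes with such a symbol, and 3 of them (Pcdha1, Pcdha4 and Pcdha5) have no row that was analysed here.

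The study used chromatin immunoprecipitation and sequencing (ChIP-seq). Mouse cortex and ganglionic eminence, dissected at E14.5, gave the neural stem and progenitor cells, which were kept as neurospheres (floating spheres of dividing cells) and taken at passage 5 and day 3. Intact cells were Kat7+/+NesCreT/+ and deleted cells were Kat7lox/loxNesCreT/+, so both genotypes carried the Cre transgene, whose nestin-derived control sequence acts in neural progenitors. The antibodies were against histone H3 acetylated at lysine 14 (H3K14ac) and against KAT7 (HBO1), an acetyltransferase for that residue. The labels name 4 intact and 3 deleted H3K14ac libraries, 3 intact and 1 deleted KAT7 libraries, and 1 IgG library for each experiment.

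The values used were 1 merged H3K14ac column and 1 merged KAT7 column, which do not separate genotypes or libraries, and neither genotype nor IgG was compared here. Levels are RPKM, reads per kilobase of region scaled to the read total of the column (141734087 reads for H3K14ac and 134111848 for KAT7). Every interval in parentheses is a 95% interval that covers counting error only. There are no replicates behind any value, and no p-value is given. A ratio of KAT7 to H3K14ac compares the scaled reads of 2 antibodies without a shared scale, and it has to be read beside the median ratio of the same kind of region. Coordinates are of mouse build mm10.

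Protocadherins are adhesion proteins of the cadherin superfamily with an extracellular part of cadherin repeats. In the alpha and gamma clusters, each variable first exon has its own promoter and is spliced to constant exons shared by the whole cluster, while each beta gene is a separate gene of a single exon. Individual neurons choose among these promoters, and the resulting combination of isoforms on the cell surface is known for its part in self-avoidance of dendrites and axons. The non-clustered genes lie apart from the clusters and are commonly divided into a delta1 class (Pcdh1, Pcdh7, Pcdh9 and Pcdh11x), a delta2 class (Pcdh8, Pcdh10, Pcdh17, Pcdh18 and Pcdh19) and a few others (Pcdh12, Pcdh15 and Pcdh20).

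The table also marks each gene as Top, Bottom or Other in expression, from expression data that no source used here describes. The marks were set beside the labelled cell type. Of its markers, 5 of 9 for neural stem and progenitor cells (Fabp7, Nes, Olig2, Sox2 and Vim) were Top, while 0 of 4 neuron markers and 0 of 3 microglia markers were Top, and 2 of 3 endothelial markers (Cdh5 and Cldn5) were Bottom. Among the protocadherins 5 of 11 Pcdha genes (Pcdha2, Pcdha3, Pcdha6, Pcdha8 and Pcdhac1) were Bottom, a class that holds 5.0% of all genes. Pcdhgc3, a C-type gene of the gamma cluster, was the only Top gene among the 67, against 5.0% of all genes. All 22 Pcdhb genes, all 12 non-clustered genes and the other 21 Pcdhg genes were Other.

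The promoter sequence of 4 non-clustered genes is shown first, because the islands over the starts of Pcdh10 and Pcdh17 overlap these sequences, Pcdh8 has an island over its start and Pcdh15 has no CpG row over its body. Each is the 250 bases before the RefSeq start, on the strand of the gene, from 5′ to 3′, from RefSeq assembly GRCm38.p6, with CG dinucleotides in capitals. Pcdh10 lies on chromosome 3 (plus strand, chr3:45378148-45378397), Pcdh17 on chromosome 14 (plus strand, chr14:84443313-84443562), Pcdh8 on chromosome 14 (minus strand, chr14:79771313-79771562) and Pcdh15 on chromosome 10 (plus strand, chr10:73821617-73821866).
Pcdh10: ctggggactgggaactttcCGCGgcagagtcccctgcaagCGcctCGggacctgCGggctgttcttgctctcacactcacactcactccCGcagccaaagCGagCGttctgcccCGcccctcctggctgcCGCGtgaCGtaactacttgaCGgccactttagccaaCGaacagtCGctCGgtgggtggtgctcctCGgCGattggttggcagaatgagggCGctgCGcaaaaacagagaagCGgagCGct
Pcdh17: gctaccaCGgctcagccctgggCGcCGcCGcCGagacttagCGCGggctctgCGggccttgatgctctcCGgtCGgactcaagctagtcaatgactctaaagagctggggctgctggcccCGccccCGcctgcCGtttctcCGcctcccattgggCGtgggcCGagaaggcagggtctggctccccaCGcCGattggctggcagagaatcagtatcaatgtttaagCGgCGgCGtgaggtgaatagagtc
Pcdh8: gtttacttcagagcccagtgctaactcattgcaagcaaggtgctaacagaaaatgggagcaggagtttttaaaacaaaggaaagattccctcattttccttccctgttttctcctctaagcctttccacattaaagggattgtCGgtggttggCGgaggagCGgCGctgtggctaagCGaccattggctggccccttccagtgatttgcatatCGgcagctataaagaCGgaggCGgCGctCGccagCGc
Pcdh15: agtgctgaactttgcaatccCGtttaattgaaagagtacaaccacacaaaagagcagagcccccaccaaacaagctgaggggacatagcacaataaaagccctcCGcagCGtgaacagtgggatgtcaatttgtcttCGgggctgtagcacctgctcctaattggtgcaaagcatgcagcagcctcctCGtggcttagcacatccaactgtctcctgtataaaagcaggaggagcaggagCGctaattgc
Pcdh10 held 22 CG dinucleotides, Pcdh17 21, Pcdh8 11 and Pcdh15 6. Over 32851 RefSeq promoters of 250 bases the median was 6 and the 95th percentile 31. Pcdh10 and Pcdh17 were thus well above the median promoter, and Pcdh15 was at it. The letters TATAAA, searched on both strands, were present in Pcdh8 and Pcdh15 and absent from this window in Pcdh10 and Pcdh17, and 12.4% of all promoters hold them. Of the other genes with a RefSeq promoter entry, Pcdh18 held 23 CG dinucleotides, Pcdh9 18, Pcdh7 7 and Pcdh20 3.

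The first question was whether the compact, single-exon Pcdhb genes differ from the non-clustered genes in H3K14ac and KAT7 over the gene body. The Pcdhb bodies lay at the level of an ordinary gene body in both columns, and they differed little from one another. The 22 bodies lie between 37264998 (Pcdhb1) and 37521419 (Pcdhb22) of chromosome 18, on the plus strand, are 2319 to 5271 bases long and share no base with another body. Summed over the cluster, H3K14ac was 0.385 RPKM (0.373 to 0.397; 4060 reads) and KAT7 was 0.411 RPKM (0.398 to 0.424; 4096 reads). The medians of 15774 autosomal gene bodies were 0.381 and 0.399, and those of 2367 bodies of 2000 to 6000 bases were 0.382 and 0.409. Windows after gene ends (0.385 and 0.410) and the table's first set of H3K9me3 domains (0.393 and 0.395) had similar medians. IgG was not compared, so an ordinary level does not by itself show H3K14ac or KAT7 above background.

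Within the cluster H3K14ac ran from 0.331 in Pcdhb13 to 0.463 in Pcdhb16. Next to these ends stood Pcdhb1 at 0.457 and Pcdhb20 at 0.428, and Pcdhb5 at 0.336 and Pcdhb2 at 0.348. The intervals of the outermost genes did not overlap, since Pcdhb16 covered 0.416 to 0.515 and Pcdhb13 0.283 to 0.384. KAT7 ran from 0.330 in Pcdhb9, 0.335 in Pcdhb8 and 0.345 in Pcdhb13 to 0.458 in Pcdhb11, 0.464 in Pcdhb16 and 0.465 in Pcdhb17. Pcdhb16 was thus among the highest, and Pcdhb13 among the lowest, in both columns. Across the 22 genes the variation was 1.71 times what counting alone gives in H3K14ac and 2.12 times in KAT7, where 1 means counting error alone.

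A body was counted as high where it was at least 25% above the median of gene bodies, and as low where it was at least 20% below it. No Pcdhb body was high in H3K14ac (0 of 22, against 5.07% of all gene bodies) or in KAT7 (0 of 22, against 4.91%). None was low either, in H3K14ac (0 of 22, against 3.79%) or in KAT7 (0 of 22, against 3.02%). Short bodies scatter more, so the 22 were also set against bodies of 2000 to 6000 bases and their medians, with 0 of 22 past each fold again. Of those bodies 8.41% were high and 7.56% low in H3K14ac, and 8.75% were high and 6.68% low in KAT7.

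The KAT7 to H3K14ac ratio of the Pcdhb cluster was 1.07 (1.02 to 1.11), close to the median ratio of 1.05 over all gene bodies and equal to the 1.07 of bodies of like length. KAT7 exceeded H3K14ac in 18 of 22 genes, against 66.7% of bodies of like length. The ratio was highest in Pcdhb17 at 1.26 (1.02 to 1.55), Pcdhb22 at 1.22 and Pcdhb21 at 1.204. It was lowest in Pcdhb8 at 0.793 (0.609 to 1.03), Pcdhb1 at 0.811 and Pcdhb9 at 0.903. Thus 1 of 22 genes, Pcdhb17, had at least 25% more KAT7 than H3K14ac, against 7.53% of gene bodies and 18.6% of those of like length. Likewise 1 of 22, Pcdhb8, had at least 20% less, against 2.22% and 3.55%. Both counts are of a single gene, and the interval of Pcdhb8 includes 1. Pcdhb17 is also one of the 9 beta genes with a CpG island, and the 9 together had a ratio of 1.10 (1.03 to 1.17) against 1.04 (0.980 to 1.10) in the 13 without one. Between these sets of genes the level differed within counting error in H3K14ac (0.995 times, 0.935 to 1.06) and in KAT7 (1.05 times, 0.990 to 1.12).

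The beta bodies were next compared with their flanks. The 2001 bases after the 22 Pcdhb ends held H3K14ac of 0.402 (0.386 to 0.418) and KAT7 of 0.424 (0.407 to 0.440). The bodies were at 0.958 times these windows in H3K14ac (0.912 to 1.01) and 0.970 times in KAT7 (0.923 to 1.02), so body and flank could not be separated at this depth. The same held for the promoter windows before the beta genes, against which the bodies were at 0.984 times in H3K14ac (0.936 to 1.03) and 0.960 times in KAT7 (0.913 to 1.01). Some flanks are not separate from the bodies. The window after Pcdhb13 runs into the body of Pcdhb14, and the body of Pcdhb13 covers part of the window before Pcdhb14. Such shared bases draw the comparison towards equality, and the intervals treat the 2 sides as independent.

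**Figure D1:**
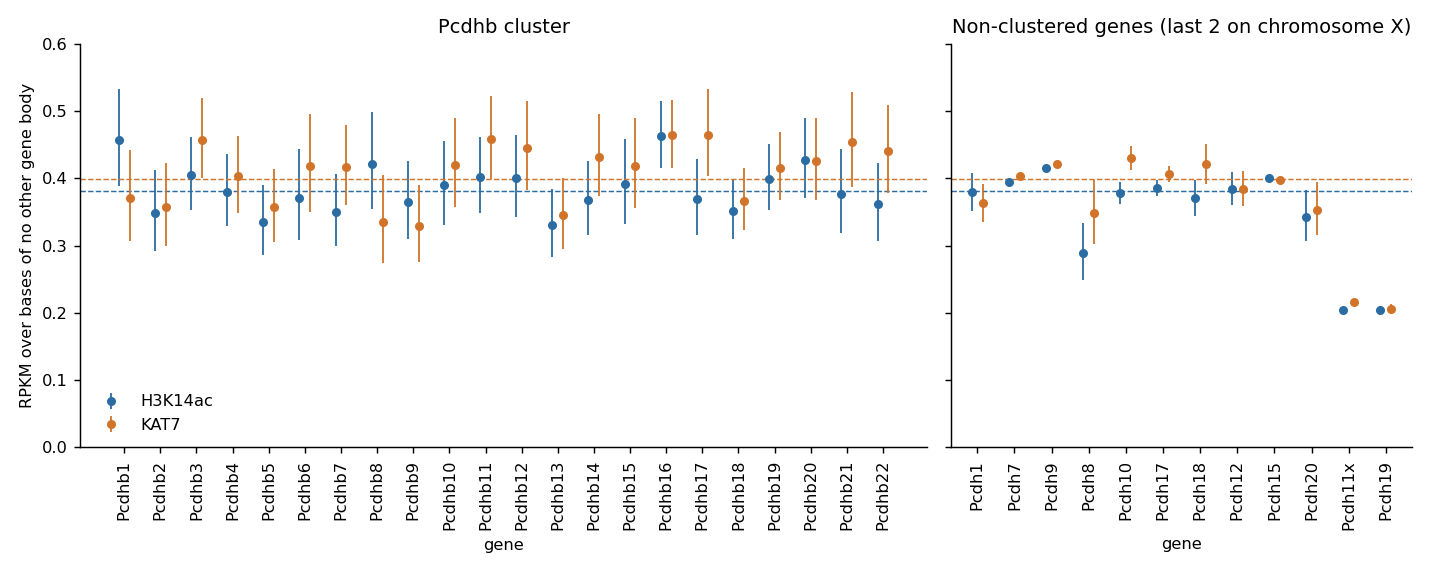
H3K14ac (blue) and KAT7 (orange) over the bodies of the 22 Pcdhb and 12 non-clustered genes, in RPKM over bases that no other gene body covers, with 95% counting intervals and dashed lines at the medians of 15774 autosomal gene bodies. The Pcdhb values sit between 0.330 and 0.465 in both columns, Pcdh8 is the lowest autosomal gene in H3K14ac at 0.289, and the genes on chromosome X sit near 0.2.

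Among the non-clustered genes, 7 are autosomal and share no base with another body. Together they had H3K14ac of 0.397 (0.394 to 0.400) and KAT7 of 0.399 (0.396 to 0.402), and a ratio of 1.01 (0.995 to 1.02). The Pcdhb cluster was at 0.971 times this level in H3K14ac (0.940 to 1.00) and 1.03 times in KAT7 (0.997 to 1.06). Neither difference exceeded counting error. The summed value is set by the longest genes, Pcdh15 with 827871 bases and Pcdh7 with 414220. Against the 5 non-clustered bodies under 20000 bases (Pcdh1, Pcdh8, Pcdh12, Pcdh18 and Pcdh20; 0.367 and 0.382), Pcdhb was at 1.05 times in H3K14ac (1.00 to 1.10) and 1.08 times in KAT7 (1.03 to 1.13). With the autosomal genes that share bases added, over their own bases, it was at 0.955 times in H3K14ac (0.926 to 0.986) and 1.01 times in KAT7 (0.975 to 1.04). The direction in H3K14ac therefore depended on which non-clustered genes were taken, and in these 3 versions the Pcdhb cluster stayed within 8% of equality in both columns.

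The delta1 genes include the longest bodies, and their values lay near the gene body medians. Pcdh7 (chromosome 5, 57718021 to 58132240) had H3K14ac of 0.395 (0.389 to 0.400) and KAT7 of 0.403 (0.398 to 0.409). Pcdh9 (chromosome 14, 93013701 to 93888732) had 0.415 (0.412 to 0.419) and 0.421 (0.417 to 0.425) over its own bases, the highest H3K14ac of the 12. Pcdh1 (chromosome 18, 38196694 to 38209762) had 0.380 (0.352 to 0.409) and 0.363 (0.335 to 0.392). Pcdh7 and Pcdh9 had slightly more KAT7 than H3K14ac, and Pcdh1 was the only delta1 gene with less.

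The delta2 genes include regulators of axon outgrowth and synapse number, and their ratios ran from near the median ratio of 1.05 to above it on the autosomes. Pcdh18 (chromosome 3, 49743296 to 49757316) had H3K14ac of 0.370 (0.344 to 0.398) and KAT7 of 0.421 (0.392 to 0.452), a ratio of 1.14 (1.03 to 1.26). Pcdh8 (chromosome 14, 79766772 to 79771312) had 0.289 (0.249 to 0.334) and 0.348 (0.303 to 0.398), a ratio of 1.205 (0.985 to 1.47). Pcdh8 was the 1 of 7 genes at least 20% below the median in H3K14ac (3.79% of gene bodies), and 0 of 7 passed any other fold.

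Pcdh10 and Pcdh17 are listed at a low RPKM, but part of each body also belongs to another gene row, and a read there is counted in neither. Pcdh10 (chromosome 3, 45378398 to 45434579) is listed at 0.257 in H3K14ac and 0.292 in KAT7, but 17996 of its 56182 bases are shared. Over the other 38186 bases it had 0.378 (0.362 to 0.395) and 0.430 (0.412 to 0.448), a ratio of 1.14 (1.07 to 1.21). Pcdh17 (chromosome 14, 84443563 to 84537060) is listed at 0.313 and 0.330 and had 0.386 (0.374 to 0.398) and 0.406 (0.394 to 0.419) over its own bases, a ratio of 1.05 (1.01 to 1.10). After this correction both sat at the level of an ordinary gene body. The 4 autosomal delta2 genes together had a ratio of 1.09 (1.05 to 1.13), against 1.02 (1.01 to 1.03) in the 3 autosomal delta1 genes and 0.996 (0.983 to 1.01) in Pcdh12, Pcdh15 and Pcdh20. These intervals do not overlap between delta2 and the others, but the median ratio over all gene bodies, 1.05, lies between them. The sums are set by the longest genes, Pcdh7 and Pcdh9 in delta1 and Pcdh15 in the last set. Genes within delta1 varied 22.7 times as much as counting gives in H3K14ac and 20.0 times in KAT7, so the intervals understate the spread between genes. Body length moved with class, and its part was not tested.

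The remaining autosomal genes were close to the median. Pcdh15 (chromosome 10, 73821867 to 74649737), a tip-link protein of sensory hair cells, had 0.400 (0.396 to 0.404) in H3K14ac and 0.398 (0.395 to 0.402) in KAT7. Pcdh12 (chromosome 18, 38267092 to 38284401), a protocadherin of endothelium and placenta, had 0.384 in both columns. Pcdh20 (chromosome 14, 88464747 to 88471396) had 0.343 (0.306 to 0.382) and 0.353 (0.315 to 0.395). On chromosome X, Pcdh11x (120290327 to 120906450) had 0.204 and 0.216, and Pcdh19 (133582860 to 133688993), known for its link to epilepsy in females, had 0.203 and 0.206. Both were near the medians of 653 gene bodies on X, 0.201 and 0.209, so neither stood apart from its chromosome.

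The bodies of the alpha and gamma clusters gave almost no measurement. Because every gene of a cluster runs to the same constant exons, their rows cover one another, and 32 of 33 Pcdha and Pcdhg bodies are listed at 0 in both columns. The exception was Pcdhga1 (chromosome 18, 37661945 to 37841870), the gene farthest upstream in the gamma cluster, with 388 H3K14ac and 396 KAT7 reads. Spread over its 7160 own bases these give 0.382 (0.345 to 0.422) and 0.412 (0.373 to 0.455), the level of an ordinary gene body, in place of the deposited 0.0152 and 0.0164. Pcdha2, the listed gene farthest upstream in the alpha cluster, has 7006 bases that no other listed body covers and is listed at 0 as well. Why those bases hold no counted read was not tested, and own bases allow only for bodies listed here. The 0 values were not taken as a measure of H3K14ac or KAT7. Instead, the clusters were followed in their promoter windows, islands and the longer rows that cross them.

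The promoter window of a gene is the 2001 bases that end at its start. Windows were usable for plus-strand genes, which took in all 55 clustered genes and 4 non-clustered ones (Pcdh7, Pcdh10, Pcdh15 and Pcdh17), while 7 minus-strand genes had no usable window and Pcdh11x lies on X. The alpha promoters had the most H3K14ac. Summed over 11 windows, Pcdha had H3K14ac of 0.434 (0.411 to 0.457) and KAT7 of 0.448 (0.424 to 0.472). The 22 Pcdhb windows had 0.391 (0.376 to 0.407) and 0.428 (0.411 to 0.445), and the 22 Pcdhg windows 0.380 (0.365 to 0.396) and 0.415 (0.399 to 0.432). The medians of 9809 promoter windows were 0.381 and 0.410, so beta and gamma promoters were ordinary and alpha promoters slightly above.

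Pcdha promoters were at 1.14 times the Pcdhg promoters in H3K14ac (1.07 to 1.22) and 1.08 times in KAT7 (1.01 to 1.15). Pcdhb promoters were at 0.903 times the Pcdha promoters in H3K14ac (0.844 to 0.965) and 0.956 times in KAT7 (0.894 to 1.02), and at 1.03 times the Pcdhg promoters in both (0.972 to 1.09 and 0.975 to 1.09). The order alpha over gamma was thus beyond counting error in both columns, and beta could not be separated from gamma. All 5 protocadherins marked Bottom belong to the alpha cluster, so the lowest expression marks and the highest promoter H3K14ac fell in the same cluster; whether they are related was not tested.

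Within the alpha cluster H3K14ac was highest at Pcdha10 with 0.557 (0.474 to 0.651), Pcdha8 with 0.490 and Pcdha3 with 0.476. It was lowest at Pcdha9 with 0.339 (0.274 to 0.414) and Pcdhac1 with 0.374. These 3 of 11 were at least 25% above the median, Pcdha3 exactly at that fold, against 9.32% of all promoter windows and 0 of 22 in each of the other clusters. In KAT7 Pcdha10 had 0.459, Pcdha8 had 0.403, and the highest were Pcdha2 at 0.496 and Pcdha6 at 0.492. The spread of the 11 alpha windows was 2.52 times counting error in H3K14ac and 0.877 times in KAT7, so genes differed in H3K14ac and not detectably in KAT7.

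In the beta cluster promoter H3K14ac ran from 0.321 at Pcdhb2 to 0.462 at Pcdhb10, and the spread was that of counting alone (0.977 times). KAT7 ran from 0.358 at Pcdhb4, Pcdhb10 and Pcdhb22 to 0.511 at Pcdhb5 and 0.5145 at Pcdhb21. Pcdhb21 was the 1 of 22 at least 25% above the KAT7 median (6.95% of windows). In the gamma cluster H3K14ac ran from 0.300 at Pcdhgb7 and 0.321 at Pcdhgb6 to 0.437 at Pcdhgb1 and 0.469 at Pcdhgc4. KAT7 there ran from 0.328 at Pcdhgb7 and Pcdhgb8 to 0.492 at Pcdhga1 and 0.503 at Pcdhga5. Pcdhgb7 was the 1 of 22 at least 20% below the H3K14ac median (11.3% of windows), and Pcdhgb7 and Pcdhgb8 the 2 of 22 that far below in KAT7 (8.63%).

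At least 25% more KAT7 than H3K14ac was found in 1 of 11 Pcdha, 5 of 22 Pcdhb, 4 of 22 Pcdhg and 1 of 4 non-clustered windows, against 21.7% of all windows. At least 20% less was found in 0 of 11, 1 of 22 (Pcdhb10, 0.775), 0 of 22 and 0 of 4, against 5.17%. These counts lie near the background. Summed ratios were 1.03 (0.957 to 1.12) for Pcdha and 1.09 for both Pcdhb (1.03 to 1.16) and Pcdhg (1.03 to 1.16), beside a median of 1.08. The highest single ratio was that of Pcdhga5 at 1.44 (1.10 to 1.89).

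Most clustered promoters carry a conserved sequence element bound by CTCF, which Pcdhac2, Pcdhb1, Pcdhgc4 and Pcdhgc5 are known to lack. These 4 promoters had H3K14ac of 0.418 (0.381 to 0.457) and KAT7 of 0.440 (0.401 to 0.481), at 1.06 times (0.965 to 1.17) and 1.03 times (0.939 to 1.14) the other 51 clustered promoters. No difference between them was detectable at this depth.

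The 4 non-clustered promoter windows together had H3K14ac of 0.340 (0.306 to 0.375), and 3 of 4 were below the median of 0.381. Pcdh15 had 0.300 (0.240 to 0.371), Pcdh17 0.325, Pcdh10 0.335 and Pcdh7 0.399. In KAT7 they had 0.392, 0.388, 0.358 and 0.421. Pcdh15 was the 1 of 4 at least 20% below the H3K14ac median, against 11.3% of windows. Clustered promoters as a whole were at 1.16 times these 4 in H3K14ac (1.05 to 1.29) and 1.10 times in KAT7 (0.992 to 1.21), so the difference exceeded counting error in H3K14ac alone.

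**Figure D2:**
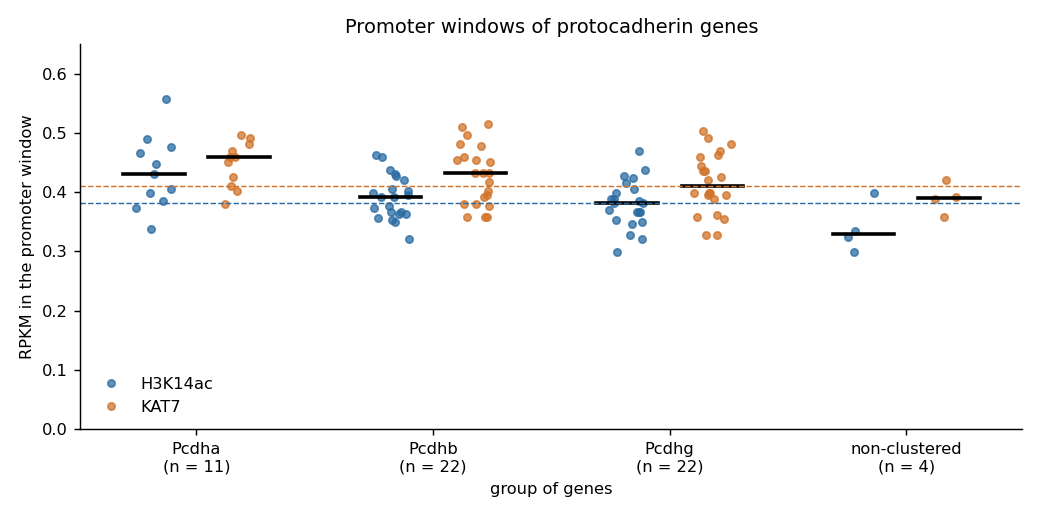
H3K14ac (blue) and KAT7 (orange) in RPKM in the 2001-base promoter windows of 11 Pcdha, 22 Pcdhb, 22 Pcdhg and 4 non-clustered genes, each point being 1 gene, with the group median as a black bar and the medians of 9809 windows as dashed lines. Pcdha10 at 0.557 is the highest point in H3K14ac, and the non-clustered windows lie at 0.399 or below in H3K14ac.

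Clustered genes differed more in their CpG islands than counting alone gives, by 2.44 times in H3K14ac and 3.47 times in KAT7. Without the island over Pcdhgc3 the spread was 2.30 and 2.10 times. It was larger in the 8 autosomal non-clustered islands, at 4.48 and 5.88 times, so it was not particular to the clusters. Of the 59 rows, 44 in the clusters and 8 in autosomal non-clustered bodies are near a transcription start site (TSS) by the table's class, 3 are far from one and 4 lie on X. Apart from those over Pcdhac2 and Pcdhgc3, the clustered islands are 208 to 777 bases long and rest on few reads, so single values are uncertain. The medians of 12881 autosomal near-TSS islands were 0.461 in H3K14ac and 0.491 in KAT7, with a median ratio of 1.07. The 19 Pcdha islands together had 0.417 (0.382 to 0.454) and 0.506 (0.466 to 0.548). The 9 Pcdhb islands had 0.484 (0.427 to 0.546) and 0.542 (0.481 to 0.610), and the 16 Pcdhg islands 0.488 (0.448 to 0.530) and 0.595 (0.549 to 0.643).

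The summed ratio was 1.21 (1.08 to 1.37) in Pcdha, 1.22 (1.09 to 1.37) in Pcdhg and 1.12 (0.944 to 1.33) in Pcdhb, where the interval includes 1. KAT7 exceeded H3K14ac in 16 of 19, 12 of 16 and 4 of 9 of these islands, against 57.9% of all near-TSS islands. The 44 clustered islands together had a ratio of 1.197 (1.11 to 1.29). The 8 non-clustered islands went further, with H3K14ac of 0.349 (0.321 to 0.378), KAT7 of 0.488 (0.454 to 0.524) and a ratio of 1.40 (1.254 to 1.56). Clustered islands were at 1.31 times the non-clustered in H3K14ac (1.19 to 1.45) and 1.12 times in KAT7 (1.03 to 1.22). As ratios of medians these were 1.18 and 1.05. The 3 non-clustered islands wholly inside a body had 0.407 and 0.549, against 0.457 and 0.547 in the 44 clustered ones. Median lengths were 466 bases in the clusters and 1233 outside them, and 5 of the 8 non-clustered islands lay over a start. The part of length and position was not tested.

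Counts of islands past a fold stayed near those of all islands. KAT7 was at least 25% above the median in 7 of 19 Pcdha, 4 of 9 Pcdhb, 5 of 16 Pcdhg and 1 of 8 non-clustered islands, against 22.4% of all. It was at least 20% below the median in 3, 2, 2 and 2 of them, against 23.5%. H3K14ac was high in 4, 2, 5 and 1, against 28.3%, and low in 6, 1, 4 and 4, against 29.7%. At least 25% more KAT7 than H3K14ac was found in 9 of 19, 3 of 9, 8 of 16 and 5 of 8, against 34.3%, and at least 20% less in 1, 2, 3 and 0, against 21.4%. The counts of high KAT7 in the 3 clusters, and of high ratios in Pcdha, Pcdhg and the non-clustered genes, were above the share of all islands, each by a few islands.

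In the clusters, islands near a listed gene start were compared with those farther after one. The sets were made by distance alone, without exon ends, and 4 Pcdha islands with no listed start within 3000 bases were left out. Islands over a start or within 600 bases of one (12 of the clustered islands) had H3K14ac of 0.533 (0.484 to 0.585) and KAT7 of 0.667 (0.611 to 0.727). Those centred later, up to 3000 bases after a start (28), had 0.434 (0.404 to 0.465) and 0.500 (0.467 to 0.535). The former were at 1.23 times the latter in H3K14ac (1.09 to 1.38) and 1.33 times in KAT7 (1.19 to 1.49). Much of the KAT7 difference came from the island over Pcdhgc3: without it the 11 others were at 1.17 times in H3K14ac (1.03 to 1.34) and 1.14 times in KAT7 (0.998 to 1.29), which no longer exceeds counting error in KAT7. All 9 Pcdhb islands are of the later kind, at 1709 to 1943 bases into the gene. Islands of the first kind had a median length of 296 bases and the later ones of 483, so length moved with position and its part was not tested.

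Among the 52 autosomal near-TSS islands the highest H3K14ac belonged to Pcdhb18 at 0.817 (0.551 to 1.17), Pcdha10 at 0.750, Pcdhgb7 at 0.724 and Pcdhga3 at 0.718. These islands are 208 to 296 bases long, and the intervals overlap. The lowest were those over the starts of Pcdh10 at 0.0908 (0.0187 to 0.265) and Pcdh17 at 0.197 (0.0899 to 0.373), and that in Pcdha8 at 0.209. In the same islands the highest KAT7 belonged to Pcdhgc3 at 0.958, Pcdha6 at 0.915 (0.634 to 1.28), Pcdha10 at 0.8285 and Pcdhga3 at 0.809. The lowest were Pcdhb15 at 0.274, Pcdh10 at 0.320 and Pcdha12 at 0.327. Pcdha8 and Pcdha11 combined low H3K14ac (10 and 9 reads) with more KAT7 (24 and 23 reads), giving ratios of 2.54 (1.17 to 5.94) and 2.70 (1.204 to 6.63).

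Pcdhgc3 was the clearest case, because its island is long and deeply covered. The island spans 37805998 to 37807484 of chromosome 18, 1487 bases over the start of the gene, and is the longest in the clusters. It held 127 H3K14ac reads, 0.603 RPKM (0.503 to 0.717), and 191 KAT7 reads, 0.958 RPKM (0.827 to 1.10). Its ratio was 1.59 (1.26 to 2.01). Pcdhgc3 was also the sole protocadherin marked Top in expression. The island was singled out as the highest in KAT7 among the protocadherin islands, so its rank among all islands is no independent evidence. A KAT7 value this high occurred in 197 of 12881 near-TSS islands, 1.53%, and in 15 of 753 islands over the start of a Top gene, 1.99%. A ratio this high occurred in 16.1% and 11.7% of them, and an H3K14ac value this high in 24.2% and 40.5%. Islands of Top genes had medians of 0.547 in H3K14ac and 0.541 in KAT7, so its H3K14ac was close to theirs and its KAT7 well above. Without this island the other 43 clustered islands had KAT7 of 0.515 (0.488 to 0.544) and a ratio of 1.16 (1.07 to 1.251), and the 15 other Pcdhg islands 0.512 (0.466 to 0.562) and 1.11 (0.969 to 1.27).

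The rows around the Pcdhgc3 start were used to follow how far the KAT7 signal reached. Many of them overlap or lie inside one another, so they share bases and are not separate observations. A row of the class named Enh, 2257 bases over the same start, had H3K14ac of 0.547 (0.469 to 0.635) and KAT7 of 0.840 (0.739 to 0.949). A 12001-base row of the table's H3K9me3 domains, from -4222 to 7778 bases relative to the start, had 0.426 (0.396 to 0.458) and 0.569 (0.533 to 0.607), a ratio of 1.34 (1.21 to 1.47). The promoter window before the start, at 0.388 and 0.444, was ordinary. KAT7 was therefore high over and after the start and not across the 2001 bases before it. A surplus of KAT7 was also present downstream. Another 12001-base domain row, 5050 to 17050 bases after the start and overlapping the first, had KAT7 of 0.471 (0.438 to 0.506) and a ratio of 1.24 (1.11 to 1.375). Inside that domain row, an Enh row 7798 to 10000 bases after the start had KAT7 of 0.511 (0.433 to 0.600) and a ratio of 1.29 (1.01 to 1.65). Farther on, an Enh row 17126 to 21803 bases after the start turned the other way, with H3K14ac of 0.594 (0.537 to 0.656), KAT7 of 0.483 (0.430 to 0.541) and a ratio of 0.813 (0.697 to 0.946). Near the next promoters, Pcdhgc4 and Pcdhgc5, which lie 8669 and 13136 bases downstream, KAT7 was 0.481 and 0.436.

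**Figure D3:**
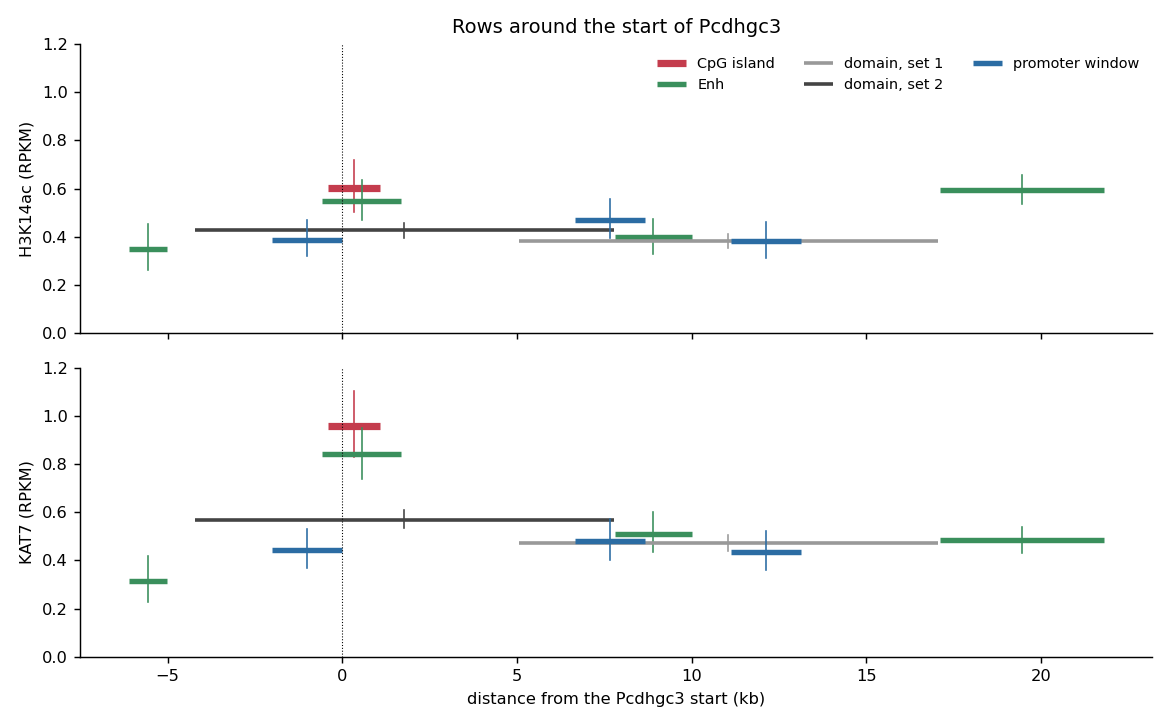
H3K14ac (top) and KAT7 (bottom) in RPKM of the rows around the start of Pcdhgc3, each drawn as a horizontal bar over its span in kilobases from the start, with a vertical line for the 95% counting interval. KAT7 is highest in the island at 0.958 and in the Enh row over the start at 0.840, while H3K14ac is as high in an Enh row farther downstream (0.594) as in the island (0.603).

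Among the non-clustered genes, the long islands of Pcdh10, Pcdh7 and Pcdh8 also had more KAT7 than H3K14ac. The 2211-base island of Pcdh17, with 120 H3K14ac and 125 KAT7 reads, had a ratio of 1.10 (0.850 to 1.43). Pcdh10 has an island of 2031 bases inside its body, centred 2270 bases after its start (chromosome 3, 45379653 to 45381683), with H3K14ac of 0.410 (0.340 to 0.491), KAT7 of 0.687 (0.592 to 0.793) and a ratio of 1.67 (1.32 to 2.13). Within it a row of 185 bases of the class named IS had 21 H3K14ac and 38 KAT7 reads, 0.805 (0.498 to 1.23) and 1.54 (1.09 to 2.11). Pcdh7 has an island of 3262 bases over its start (chromosome 5, 57717239 to 57720500), with 0.351 (0.299 to 0.409), 0.524 (0.458 to 0.596) and a ratio of 1.49 (1.22 to 1.84). Pcdh8 has one of 2967 bases (chromosome 14, 79768453 to 79771419), with 0.274 (0.226 to 0.328), 0.362 (0.305 to 0.426) and a ratio of 1.32 (1.03 to 1.71), an interval that includes the median ratio of 1.07. In these 3 islands H3K14ac was below the island median of 0.461, and KAT7 was above its median of 0.491 in Pcdh10 and Pcdh7 and below it in Pcdh8.

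The short islands over the CpG-rich starts of Pcdh10 and Pcdh17 overlap the promoter sequences shown above. That of Pcdh10 (45378166 to 45378399) held 3 H3K14ac and 10 KAT7 reads, which is too few to place its ratio. That of Pcdh17 (84443319 to 84443642) held 9 and 23 reads, a ratio of 2.70 (1.204 to 6.63). Both were low in H3K14ac, and the same genes had ordinary levels over the rest of their bodies. The other islands of Pcdh17 had ratios of 0.890 (0.428 to 1.83) and 1.10 (0.850 to 1.43), and that of Pcdh1 1.02 (0.598 to 1.75), so the surplus of KAT7 was not shared by every non-clustered island. No CpG row overlaps Pcdh15, nor Pcdh9, Pcdh18 and Pcdh20. The promoters of these genes ran from 3 CG dinucleotides in Pcdh20 to 23 in Pcdh18, while Pcdh7, with 7, has an island over its start. Only islands that overlap a body were searched, so one wholly upstream of a body would be missed. For Pcdh9 the RefSeq starts lie 1937 and 1947 bases upstream of the body used.

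**Figure D4:**
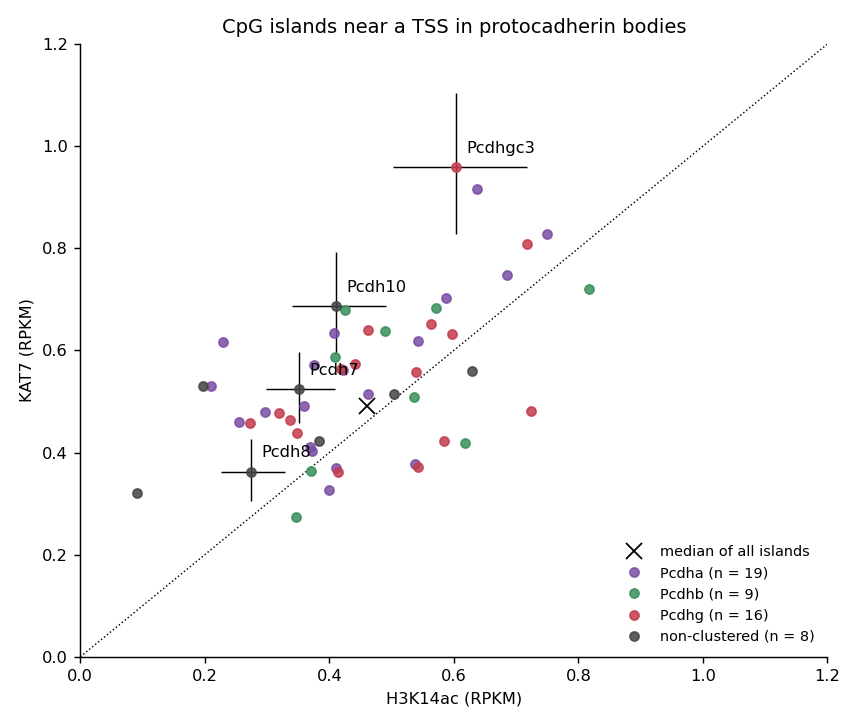
KAT7 against H3K14ac, in RPKM, in the 52 autosomal near-TSS CpG islands of protocadherin bodies, coloured by group, with a dotted line of equality, a cross at the medians of 12881 islands and 95% counting intervals for 4 islands. The Pcdhgc3 island is the highest in KAT7 at 0.958, and the islands of Pcdh7, Pcdh8 and Pcdh10 lie above the line at low H3K14ac.

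Longer rows that cross the clusters rest on many more reads. Rows of the class the table calls Pseudogenes, which here run along the clusters, had H3K14ac of 0.382 (0.375 to 0.390) and KAT7 of 0.400 (0.393 to 0.408) in Pcdha, 0.391 (0.384 to 0.399) and 0.409 (0.401 to 0.417) in Pcdhb, and 0.363 (0.354 to 0.372) and 0.402 (0.393 to 0.412) in Pcdhg. The class medians were 0.390 and 0.396. The gamma rows had the lowest H3K14ac and a ratio of 1.11 (1.07 to 1.15), against 1.05 in the other clusters (1.02 to 1.08 in each) and a class median of 1.01.

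The first set of H3K9me3 domains, windows of 12001 bases, gave the clusters the same order in H3K14ac. The 5 gamma windows had H3K14ac of 0.351 (0.339 to 0.364), KAT7 of 0.409 (0.395 to 0.423) and a ratio of 1.16 (1.11 to 1.22), and all 5 had a ratio above 1. The 4 alpha windows had 0.378 and 0.410, a ratio of 1.08 (1.03 to 1.15), and the 3 beta windows 0.401 and 0.395, a ratio of 0.986 (0.926 to 1.05). The medians of 14501 such windows were 0.393 and 0.395. In these gamma windows H3K14ac was thus below the class median and KAT7 was not.

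Genes with which protocadherins are known to work, and other cadherins, were mostly near the gene body medians over their own bodies. The list of chromatin regulators of the clusters held 12 genes, such as the insulator protein gene Ctcf and the cohesin gene Rad21. Of these, 8 had an autosomal body free of overlap, and Ctcf was not among them. Of the 8, 0 passed any fold, where 3.02% to 5.07% of all gene bodies pass each fold in level. Their medians were 0.381 in H3K14ac and 0.427 in KAT7. KAT7 was highest in Rad21 at 0.441 and lowest in Dnmt3b, a DNA methyltransferase, at 0.386. Of 8 measured intracellular partners, 1 (Marcks, an actin-associated protein) was high in KAT7, at 0.593, against 4.91% of gene bodies. Its ratio was 1.30 (1.13 to 1.498), which puts 1 of 8 past that fold, against 7.53%, and Wasf1 was lowest in KAT7 at 0.375. Of 12 other large cadherins 0 passed, from 0.355 in Cdhr2 to 0.414 in Cdhr3 in KAT7. Of 20 classical cadherins 1 was low in both columns, Cdh22 at 0.200 and 0.215, against 3.79% and 3.02%. The island over the start of Cdh22 had 0.527 and 0.454, and why its body was low was not tested. Cdh20 was the highest of the 20, at 0.422 and 0.430. The Pcdhb and non-clustered bodies, with medians of 0.379 and 0.380 in H3K14ac and 0.419 and 0.384 in KAT7, lay within the range of these lists.

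The near-TSS islands over the starts of the listed genes spread more widely. Among the chromatin regulators 5 of 9 islands were low in H3K14ac, against 29.7% of all islands, and 2 of 9 were high. In KAT7 3 of 9 were low, against 23.5%, and 2 of 9 high. Among the intracellular partners 6 of 10 had at least 25% more KAT7 than H3K14ac, against 34.3%, with a median ratio of 1.325. Of these 10, 4 were low and 1 high in H3K14ac, and 4 were low and 0 high in KAT7. At least 25% more KAT7 than H3K14ac was also found in 3 of 4 islands of other large cadherins. Of the classical cadherins 4 of 8 islands were high in H3K14ac, against 28.3%, and 4 of 8 in KAT7, against 22.4%, while 1 of 8 was low in each. All these lists are short.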

How the data were processed

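ChIP-seq was measured in 13 libraries of mouse neural stem and progenitor cells. Per the file headers, the authors deposited for each of 240814 regions a read count and an RPKM value in 1 merged H3K14ac and 1 merged KAT7 column. The submitters' processing notes name build mm10 and Bowtie2, SAMtools, Picard, deepTools and featureCounts; no source used here gives their versions and roles, or which libraries each column holds. The deposited RPKM equals the count over length and a column total for 100% of counted rows (relative tolerance 1e-06).

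With Python 3.11.15, pandas 2.3.3 and scipy 1.17.1, levels were summed counts over summed length with exact Poisson 95% intervals, and ratios had exact binomial ones; the interval and overlap code was tested on simulated data. The 4080 gene bodies that share bases with another body, chromosome X and rows with a mean below 0.1 or a value above 5 RPKM were left out of medians. With 1 value a column, high means 25% above and low 20% below the median, and for the ratio of KAT7 to H3K14ac 25% above or 20% below 1. Named were all non-clustered genes and the 3 highest and lowest of each cluster (5 and 3 for islands), the text giving those that bear on a comparison. The members and lists were chosen with earlier results of these data known. Since Pcdha and Pcdhg bodies are listed at 0, their ratio was taken from promoter windows.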

Additional observations from a re-analysis of the deposited data

How the results depend on the processing

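Of 90 recomputed values, 65 stayed within their counting interval (counts of genes or islands, near the main count) and 25 did not. The non-clustered level, 0.397 in H3K14ac and 0.399 in KAT7, was 0.380 and 0.384 as a median of genes, 0.382 and 0.385 with chromosome X, and 0.403 and 0.408 with sharing genes over their own bases. The Pcdhb to non-clustered ratio, 0.971 in H3K14ac and 1.03 in KAT7, was 1.01 and 1.07 with chromosome X, 0.917 and 0.973 with 200 bases added to each body, 1.05 and 1.08 against bodies under 20000 bases, and 1.09 in KAT7 as a ratio of medians. In H3K14ac it was below 1 beyond counting error with 200 bases added and with sharing genes over their own bases (0.955), and above 1 against bodies under 20000 bases. Divided by the class median, the KAT7 to H3K14ac ratio was 1.02 for Pcdhb, 0.962 for non-clustered bodies, 0.952 for Pcdha and 1.01 for Pcdhg promoters, and the median of the non-clustered genes' own ratios was 1.02. Non-clustered islands wholly inside a body had 0.407 in H3K14ac and 0.549 in KAT7, Pcdhg islands without that of Pcdhgc3 had 0.512 in KAT7, clustered islands near a start without it were at 1.14 times the later ones in KAT7 in place of 1.33, and Pcdhga1 over its whole body 0.0152 and 0.0164. Against islands of 200 to 800 bases, 2 Pcdhb islands were low in H3K14ac in place of 1. With the same change 8 Pcdha islands were low in H3K14ac in place of 6, and 5 were high in KAT7 in place of 7, both taken as near the main count. The own-base, short-body, island-length and Pcdhgc3 alternatives were chosen after seeing the data. No paired analysis was possible because the columns are merged over libraries, and for the same reason no library could be left out. Depth limits the values of single islands and of other short rows.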
